A study of Homo sapiens with 4 samples.

Results

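The stathmin genes STMN1, STMN2, STMN3 and STMN4 were described in OE33, a human cell line of esophageal adenocarcinoma. These 4 of 34693 gene names on the array were covered by 8 of its 47321 probes, taken by the gene name in the deposited bead table. STMN1 had 4 probes, STMN2 had 2, STMN3 had 1 and STMN4 had 1. A lipid reagent carried the precursor of human miR-223, or a precursor serving as negative control, into the cells at 10 nM, and RNA was taken after 24 h. Both groups had 2 Illumina HumanHT-12 v4 bead arrays, described in the design text as biological replicates, so the number of arrays limits every value. The control cells went through the same transfection, and no untransfected cells were measured. The family was chosen by the measured STMN1 difference between these groups, so the differences of its members are given as a description with no test.

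Stathmin proteins bind tubulin heterodimers, hold them out of polymerization and promote the shrinking of microtubules. STMN1, the founding member, is cytosolic, is found widely in dividing cells and is switched off by phosphorylation when the mitotic spindle forms. STMN2, STMN3 and STMN4 carry an extension that anchors them to membranes and are known mainly from neurons. MiR-223 is a microRNA of myeloid cells, and STMN1 has been reported elsewhere as 1 of its targets.

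A microRNA recognises messengers mainly through its seed, bases 2 to 8, which pairs with the 3′ untranslated region. Which mature arm of miR-223 the transfected precursor gave was not measured. Both arms are shown because the seed of an arm sets which messengers it can pair with. They are taken from RefSeq (GRCh38.p14) with the seed in capitals and lie on the plus strand at chrX:66018937-66018958 (3p) and chrX:66018895-66018916 (5p).
hsa-miR-223-3p: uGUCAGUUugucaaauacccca
hsa-miR-223-5p: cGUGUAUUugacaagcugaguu
The letters that pair with the whole seed are AACUGAC for the 3p arm and AAUACAC for the 5p arm. Stathmin messengers were not searched for them, because their untranslated regions were not used here.

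On the 4 arrays, 18036 to 18916 probes were detected, meaning that their detection p, the deposited comparison with negative control beads, was under 0.05. Of all probes, 18629 were detected on at least 2 arrays and entered the fit. The arrays hold a probe for the gene MIR223, which had bead signals of 100.7 and 110.5 units in miR-223 cells, against 108.3 and 111.7 units in control cells. That probe was not detected on any array, and the mature microRNA was not measured, so these arrays do not check the transfection itself. All 10 epithelial markers examined, such as EPCAM, CDH1 and KRT19, were detected on all 4 arrays. Of 12 neuronal markers, 2 were detected on all arrays and 7 on none. Of 6 leukocyte markers 3 were detected on all arrays, and of 6 fibroblast markers 0 were.

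STMN1 had a lower signal in the miR-223 arrays on both of its probes that were detected. On probe ILMN_1657796 the deposited bead signal was 342.5 and 361.4 units in miR-223 cells, against 825.5 and 798.3 units in control cells. The standard error over the beads was between 18.8 and 50.7 units on these arrays, with 21 to 26 beads each. The miR-223 signals were both under those of the controls, and the groups did not overlap. After background correction and quantile normalization, the log2 signal was 8.07 and 7.98 in miR-223 cells, against 9.64 and 9.35 in control cells. The means were 8.03 ± 0.065 in miR-223 cells and 9.49 ± 0.21 in control cells (SD, n = 2 each). The log2 difference was -1.47 ± 0.23 (SE from limma), or 2.76-fold lower in miR-223 cells. In RNA from whole cultures, fewer cells expressing STMN1 and less STMN1 RNA per cell cannot be told apart.

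On the second detected STMN1 probe, ILMN_1745593, the bead signal was 147.6 and 173.0 units in miR-223 cells, against 223.2 and 251.9 units in control cells. The 2 groups again did not overlap, although the signals were closer to the negative control level. In normalized log2 values the probe stood at 5.93 and 6.25 in miR-223 cells, against 7.17 and 7.17 in control cells. The log2 difference was -1.08 ± 0.23 (SE), or 2.12-fold lower. Paired by replicate number, the differences on the first probe were -1.57 and -1.37. On the second probe they were -1.24 and -0.93. With the pairs crossed they ranged from -1.66 to -1.28 on the first probe and from -1.24 to -0.92 on the second.

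Of the 8 family probes, 3 were detected and entered the fit. On 2 of these 3 the highest miR-223 value was under the lowest control value, as it was on 16.8% of all tested probes. The same 2 were at least 2-fold lower, as were 0.145% of all tested probes. Counted from the lowest log2 difference of the 18629 tested probes, the first STMN1 probe ranked 3 and the second ranked 19. Over every other processing or choice of arrays tried, the ranks ran from 1 to 22 for the first probe and from 17 to 114 for the second. Since STMN1 was picked for this difference, nothing follows from its rank.

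**Figure D1:**
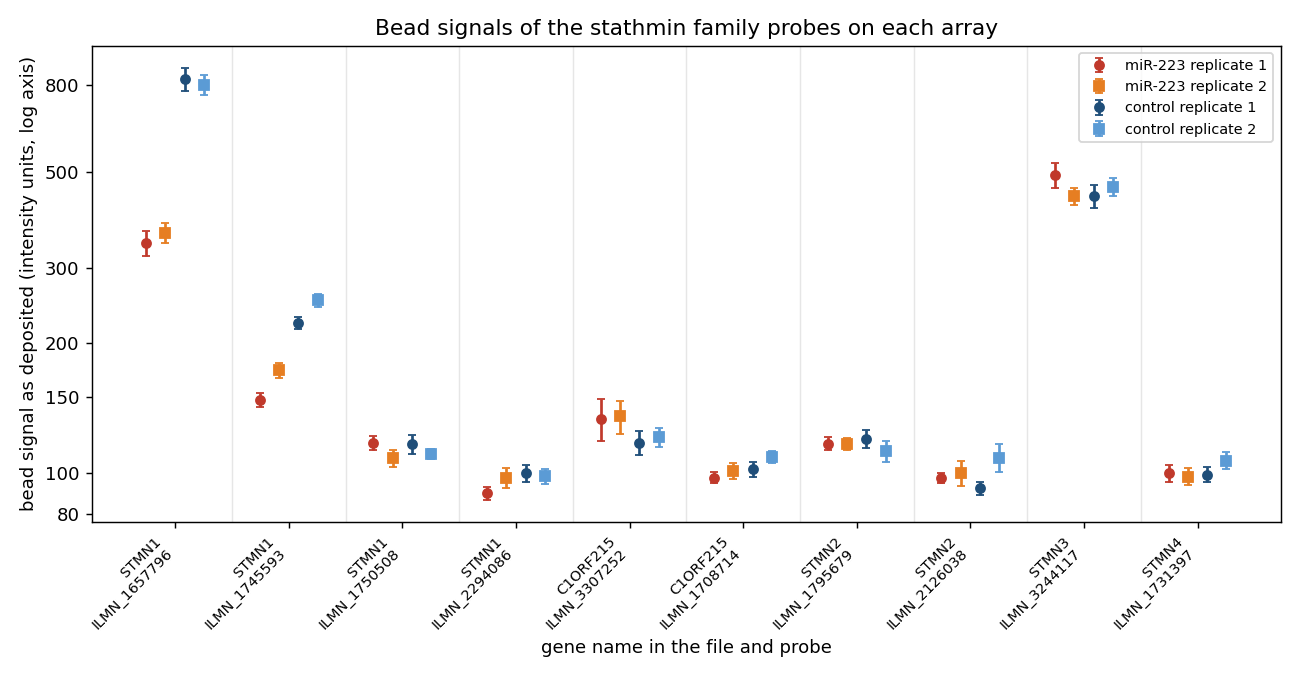
Deposited bead signal (intensity units, log axis) of the 8 stathmin family probes and of 2 probes named C1ORF215, with 1 point for each array and bars for the standard error over its beads. The 2 detected STMN1 probes, at the left, are lower in the miR-223 arrays, STMN3 overlaps between the groups, and the other probes were not detected, apart from ILMN_3307252 in the miR-223 arrays.

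The remaining STMN1 probes gave no measurement of the gene. Probe ILMN_1750508 had 117.3 and 108.2 units in miR-223 cells, against 116.5 and 110.5 units in control cells. Probe ILMN_2294086 had 89.6 and 97.4 units in miR-223 cells, against 99.7 and 98.1 units in control cells. Neither probe was detected on any array, so neither bears on whether STMN1 differed. No fold is given for them.

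A further 2 probes carry the name C1ORF215 in the deposited table. RefSeq lists it as a synonym of STMN1 and the authors' deposited table gives its consensus symbol as STMN1. They are not family probes by gene name and are set apart here. On probe ILMN_3307252 the bead signal was 133.5 and 135.3 units in miR-223 cells, against 117.4 and 121.1 units in control cells. It was detected on both miR-223 arrays and on neither control array. Its measured difference was opposite in sign to those of the 2 detected STMN1 probes. It entered the fit only through the miR-223 arrays, so the filter favored a higher value there. Nothing follows from its sign. After the background correction used here, the normalized level was at least 1.29-fold higher in miR-223 cells, set against the lowest signal that counted as detected. That bound holds for this processing only. The mean bead signals were 134.4 units in miR-223 cells and 119.25 units in control cells. On the authors' quantile normalized values, which are not background corrected, the log2 difference of this probe was 0.19. The log2 means as measured were 5.44 ± 0.094 in miR-223 cells and 4.87 ± 0.0079 in control cells (SD, n = 2 each), a measured difference of 0.57 ± 0.22 (SE). The standard error over its beads was between 6.18 and 15.0 units, on 12 to 19 beads. The other C1ORF215 probe, ILMN_1708714, had 97.4 and 101.2 units in miR-223 cells, against 101.9 and 108.9 units in control cells, and was not detected on any array. Probe sequences were not used here, so which STMN1 transcripts each probe matches is not stated. RefSeq also lists pseudogenes of STMN1, and whether a probe matches them was not tested.

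Of the neuronal paralogs, STMN3 was the 1 detected in OE33 cells. STMN3, which in rodent neurons acts on the branching of axons and dendrites, had bead signals of 492.9 and 440.8 units in miR-223 cells, against 440.0 and 462.6 units in control cells. The 2 groups overlapped, and the highest and second lowest of the 4 values both came from miR-223 cells. In normalized log2 values STMN3 averaged 8.55 ± 0.27 in miR-223 cells and 8.49 ± 0.12 in control cells (SD, n = 2 each). The log2 difference of 0.058 ± 0.24 (SE) was smaller than the spread between replicates.

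STMN2, which takes part in the growth and regeneration of axons, had 2 probes. The first, ILMN_1795679, had 116.9 and 116.7 units in miR-223 cells, against 119.9 and 112.2 units in control cells. The second, ILMN_2126038, had 97.4 and 99.7 units in miR-223 cells, against 92.0 and 108.5 units in control cells. STMN4, a neuronal member expressed in the brain, had 99.9 and 98.0 units in miR-223 cells, against 99.0 and 106.8 units in control cells. None of these 3 probes was detected on any array in either group. Over the 5 undetected family probes, bead signals lay between 89.6 and 119.9 units and detection p between 0.100 and 0.983. The negative control level inferred from the detection p-values was between 106.6 and 109.5 units. STMN2 and STMN4 were thus not detectable on these arrays, with or without miR-223, and no fold is given for either.

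The size of the STMN1 difference depended on how background light was treated, and more so on the dimmer probe. As deposited, the mean signal of ILMN_1657796 was 352 units in miR-223 cells and 812 units in control cells, a ratio of 2.31 for control over miR-223. For ILMN_1745593 the means were 160.3 units in miR-223 cells and 238 units in control cells, a ratio of 1.48. Once each array's inferred negative control level was subtracted, the means of ILMN_1657796 were 244 units in miR-223 cells and 704 units in control cells, a ratio of 2.88. For ILMN_1745593 they were 52.7 units in miR-223 cells and 129.4 units in control cells, a ratio of 2.46. The 2 probes were therefore closer to each other after subtraction than before it.

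The same pattern held after quantile normalization. With no background correction the folds were 2.30 and 1.47 on the 2 probes, each lower in miR-223 cells. With the offset of 16 used here they were 2.76 and 2.12, and with an offset of 0 they were 2.88 and 2.47. The offset is a constant added after background correction, which steadies dim probes and draws their differences toward 0. STMN3 stayed between -0.13 and 0.25 on the log2 scale over 11 other ways of processing or choosing the arrays.

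**Figure D2:**
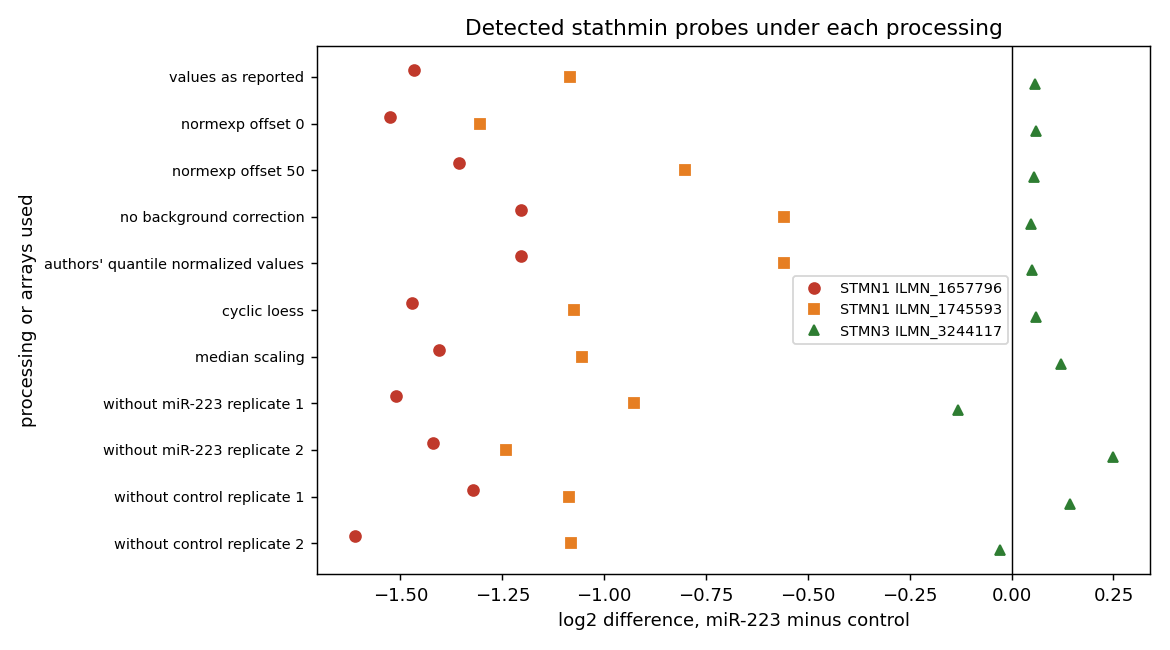
Log2 difference, miR-223 minus control, of the 3 detected family probes (1 row for each processing or choice of arrays). Both STMN1 probes stay below 0 throughout, the second moves from -1.08 as reported to -0.56 without background correction, and STMN3 lies near 0 with either sign.

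In the authors' deposited table, which holds 1 log2 value for each gene, STMN1 had a log2 fold change of -0.81, ranking 15 from the lowest of 34693 genes. Its values in the authors' deposited table were 7.501 and 7.485 in miR-223 cells, against 8.393 and 8.212 in control cells. The mean of the authors' quantile normalized signals over all 4 STMN1 probes, undetected ones included, gave the same -0.81. Averaging the 2 detected probes alone gave -1.03. The authors' deposited table lists C1ORF215 as a row of its own at 0.069, STMN3 at 0.049, STMN2 at 0.0013 and STMN4 at -0.051. The values for STMN2 and STMN4 come from probes that were not detected on any array.

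Genes that act on stathmin or beside it at the microtubule were examined next. In all, 87 genes in 7 lists were considered, of which 72 were tested. Limma called 0 of the 72 at an adjusted p under 0.05, against 0% of all 18629 tested probes, where the smallest adjusted p was 0.909. Before adjustment, 9.72% of the 72 had a limma p under 0.05, against 5.46% of all tested probes. The sets are unlike, since each of the 72 genes is represented by its brightest tested probe, while the second share counts every tested probe. Of these genes 4 were lower and 3 were higher in miR-223 cells, where the shares over all tested probes were 2.78% lower and 2.68% higher. The 72 tested genes had differences between -0.84 and 0.71, a range that neither detected STMN1 probe fell in. STMN1 was picked for its difference and these genes were not, so nothing follows from its place outside their range. The median difference of all tested probes was 0.0031. The counts by sign given below describe each list, and a shared shift of a list was not tested.

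Stathmin is inactivated by kinases that phosphorylate its serines. Of 15 such kinases and opposing phosphatases, 13 were tested, with a median of 0.020, and 0 were called. PAK1, a kinase downstream of RAC and CDC42, had log2 signals of 7.68 and 7.78 in miR-223 cells, against 8.16 and 8.34 in control cells. Both miR-223 arrays lay below the controls, and the difference was -0.52 ± 0.22 (SE; limma adjusted p = 0.909). MAPK3, which encodes the kinase ERK1, stood at 0.34 ± 0.22 (SE), with its other probe at 0.049. The phosphatase subunit PPP2CA stood at 0.13 ± 0.22 (SE), with its other probe at 0.094. The mitotic kinases CDK1 (-0.15 ± 0.32, SE; 0.04 on its other probe) and AURKB (-0.29 ± 0.23, SE) were named after their values were seen, and neither was called.

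Transcription factors and binding partners of stathmin, 6 in all, had a median of -0.26, with 4 of 6 below 0 and 0 called. FOXM1, a transcription factor of the G2 and M phases reported to act on the STMN1 promoter, stood at -0.47 ± 0.23 (SE), with its other probe at -0.46. CDKN1B, the cell cycle inhibitor p27 that binds stathmin, stood at -0.46 ± 0.33 (SE), with its other probe at -0.28. Its groups overlapped, with log2 signals of 8.19 and 8.87 in miR-223 cells, against 8.61 and 9.37 in control cells. In both groups replicate 2 was the higher. SIVA1, an adaptor protein that binds stathmin, stood at 0.29 ± 0.22 (SE), with its other probes at 0.37, 0.23 and -0.50. The proliferation markers, 12 of 12 tested, had a median of 0.13, with 8 of 12 above 0 and 0 called. Among them the nuclear antigen MKI67 (-0.54 ± 0.24, SE) and the mitotic kinase PLK1 (0.71 ± 0.28, SE) stood on opposite sides of 0. UBE2C, a ubiquitin-conjugating enzyme of mitosis, stood at 0.12 ± 0.22 (SE), with its other probes at 0.25 and 0.17. Without background correction MKI67 was at -0.35 and PLK1 at 0.46.

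Other proteins that take microtubules apart had values on both sides of 0. Of 10 such genes 9 were tested, with a median of 0.064, 7 of 9 above 0 and 0 called. KATNA1, the catalytic subunit of the severing enzyme katanin, had log2 signals of 8.41 and 8.63 in miR-223 cells, against 7.78 and 8.06 in control cells. Its difference was 0.60 ± 0.23 (SE; limma adjusted p = 0.909). KATNAL1, a katanin-like protein, had log2 signals of 5.23 and 5.38 in miR-223 cells, against 5.71 and 6.58 in control cells. Its difference was -0.84 ± 0.30 (SE), or -0.32 without background correction, and its control arrays lay far apart. The kinesin KIF2C, which depolymerizes microtubule ends, stood at 0.19 ± 0.22 (SE).

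Stabilizing and end-binding proteins, 15 tested of 21, had a median of -0.14, with 12 of 15 below 0 and 0 called. MAPRE2, an end-binding protein, had log2 signals of 8.56 and 8.67 in miR-223 cells, against 9.02 and 9.31 in control cells, a difference of -0.55 ± 0.23 (SE; limma adjusted p = 0.909). Its relative MAPRE1 stood at 0.019 ± 0.22 (SE). CLIP1, a linker protein at growing ends, stood at 0.48 ± 0.22 (SE), with its other probes at 0.24 and -0.37. The tubulins, which stathmin binds, had 11 tested of 17, a median of -0.12 and 0 called. TUBA3D stood at -0.51 ± 0.25 (SE), TUBB6 at -0.37 ± 0.22 (SE; -0.32 on its other probe) and TUBA1A at -0.22 ± 0.23 (SE). A second TUBA1A probe stood at -0.68. Tubulin genes are close copies of each other, so values of single tubulins are uncertain. Cofactors that fold tubulin, 6 of 6 tested, had a median of 0.032 and 0 called. TBCC stood highest among them at 0.66 ± 0.24 (SE), while TBCE was at 0.17 ± 0.23 (SE; 0.11 on its other probe) and TBCA at -0.087 ± 0.23 (SE).

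**Figure D3:**
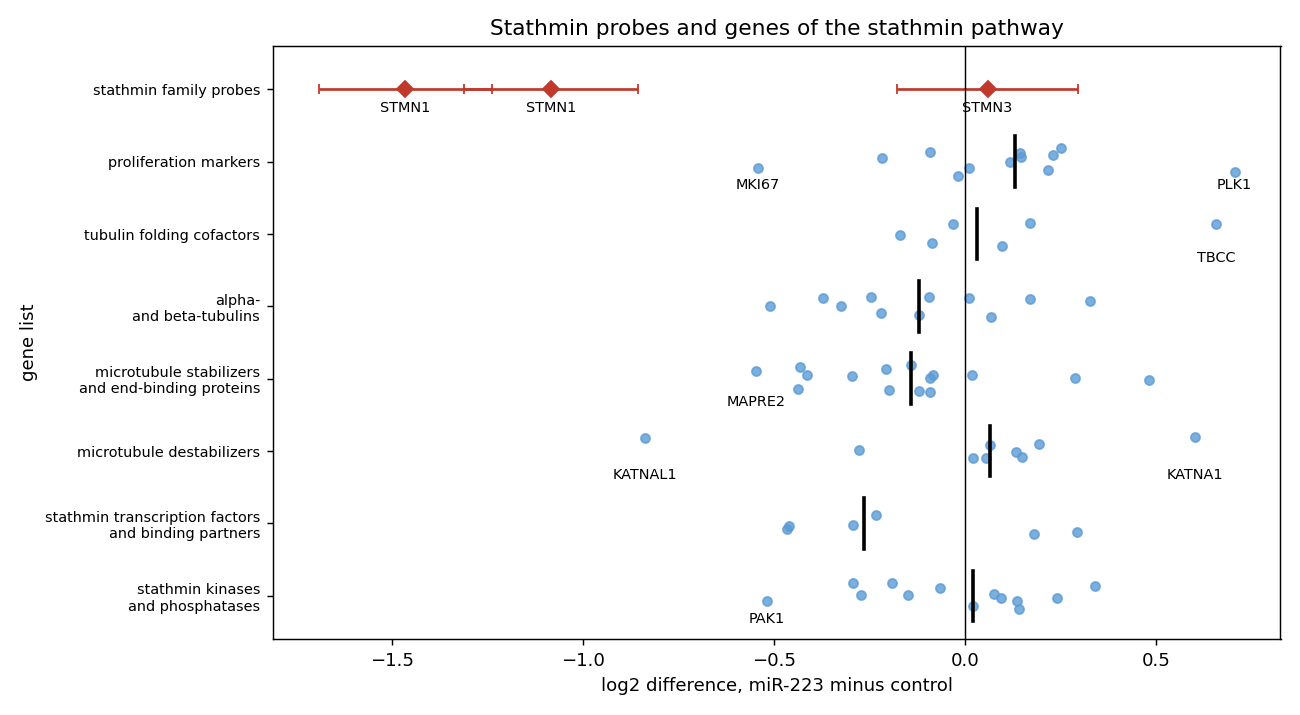
Log2 difference, miR-223 minus control, of the 72 tested pathway genes (circles, 1 row for each list, black bars for medians) and of the 3 detected family probes (diamonds with SE, top row). Gene names mark unadjusted limma p under 0.05, and both STMN1 probes lie left of every circle. STMN1 was picked for its difference, so nothing follows from that position.

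The cell type markers were examined for the neuronal genes that usually accompany STMN2, STMN3 and STMN4. Of the 12 neuronal markers 3 were tested. SYT1, the calcium sensor of synaptic vesicles, stood at -1.09 ± 0.21 (SE), or -0.41 without background correction. ENO2, a neuronal enolase, stood at 0.020 ± 0.50 (SE). CHGA, a granin of neuroendocrine granules, was detected on 1 of 2 miR-223 arrays and 1 of 2 control arrays, and no fold is given for it. Among epithelial markers, KRT19 stood at 0.034 ± 0.22 (SE) and KRT18 at -0.38 ± 0.29 (SE; 0.047 on its other probe). CLDN4, a tight junction protein, stood at 1.05 ± 0.43 (SE) with replicates far apart. Its log2 signals were 8.28 and 7.23 in miR-223 cells, against 7.26 and 6.16 in control cells, with replicate 1 the higher in both groups. Without background correction CLDN4 was at 0.64. Limma called 0 of the 16 tested markers, leukocyte markers included, after adjustment. Before it SYT1 and CLDN4, or 12.5% of the 16, had p under 0.05, against 5.46% of all tested probes. Here too the brightest tested probe of each gene is set against every tested probe.

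Among other genes with a current symbol, those whose pattern over the 4 arrays was most like that of STMN1 on ILMN_1657796 were PARP1, PPARD, SYT1, MANBAL and CYB5A. The other STMN1 probes were left out of this ranking, as were names of only a locus, clone or open reading frame. Likeness was the Euclidean distance between log2 values, each probe centred on its own mean over the 4 arrays, so genes with a similar difference between groups are near by construction. PARP1, a poly(ADP-ribose) polymerase of DNA repair, was nearest at a distance of 0.150. Its log2 signals were 9.76 and 9.78 in miR-223 cells, against 11.23 and 11.04 in control cells. Like STMN1, PARP1 was highest in control replicate 1, as were PPARD and MANBAL, while SYT1 and CYB5A were highest in control replicate 2. The other distances were 0.420 for PPARD, a lipid-activated nuclear receptor, 0.450 for SYT1, 0.468 for MANBAL and 0.478 for CYB5A, which encodes cytochrome b5. PPARD had log2 signals of 7.73 and 7.28 in miR-223 cells, against 8.94 and 8.42 in control cells. Over only 4 arrays such a likeness is a description.

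**Figure D4:**
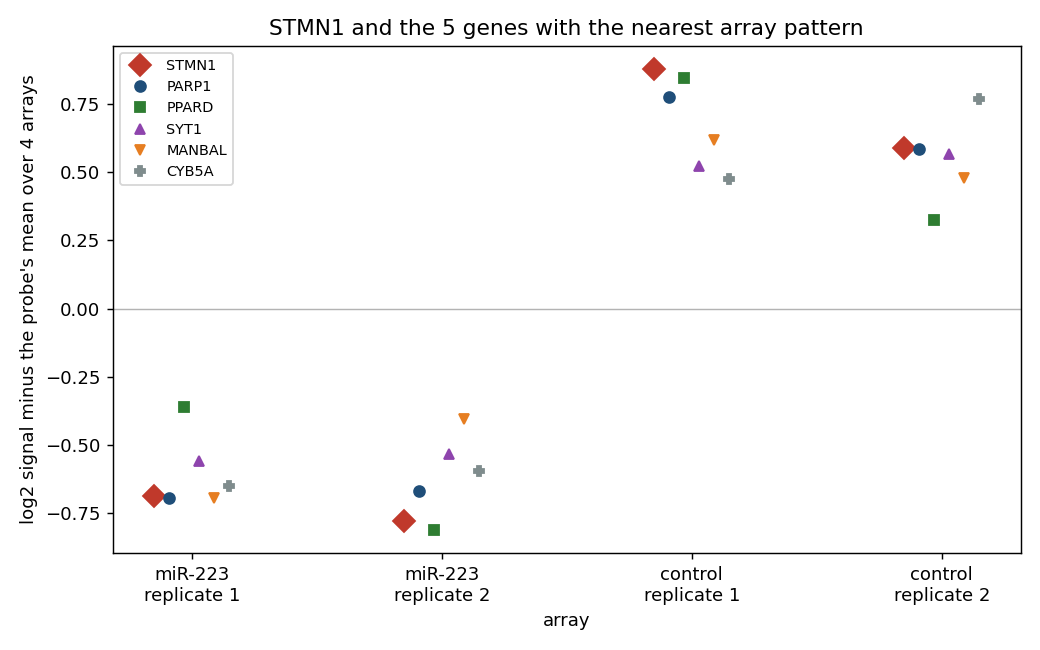
Log2 signal minus the probe's mean over the 4 arrays, for STMN1 (probe ILMN_1657796) and the 5 genes with the nearest pattern, with 1 point for each gene and array. All 6 genes are below their mean in both miR-223 arrays and above it in both control arrays, and PARP1 lies closest to STMN1.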

How the data were processed

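The deposited bead table gives, per the file headers, a mean signal for each probe and array as a linear intensity, with the error over its beads, their number (22 at the median) and a detection p-value. Another deposited table holds linear intensity values that were quantile normalized, as its near-equal sorted columns show. The authors' deposited gene table holds log2 values. The submitters' processing notes name GenomeStudio, BeadStudio and Partek, with no role for any of them.

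Bead signals were corrected by normexp with negative control levels inferred from the detection p-values (offset 16), quantile normalized and taken to log2 with limma 3.58.1 under R 4.3.3. The fit took probes detected (p under 0.05) on 2 or more of the 4 arrays and used lmFit and eBayes, group as the only term, two-sided, with Benjamini-Hochberg adjustment over all 18629 tested probes. The fit was also run on simulated data with independent noise on each array. The only requirement there was on the mean size of planted differences, so that run does not bear on how well calls hold here. Gene names were updated through RefSeq (GRCh38.p14). Of 47321 probes, 27039 held a current symbol, 4625 were matched by synonym and 2237 by the authors' consensus symbol. A gene with several probes is represented by that with the highest mean signal. The members and lists were chosen with earlier results of these data known. In each list other than the leukocyte and fibroblast markers the 2 genes with the smallest p and the 1 with the highest signal were named, and 5 genes by likeness to STMN1. Apart from the miR-223 arms, no coordinates of probes or genes are given, since no build is named for the probes. Other background corrections, normalizations, filters, variance models and arrays left out were tried as alternatives.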

Additional observations from a re-analysis of the deposited data

How the results depend on the processing

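STMN1 on probe ILMN_1657796 kept its direction in all settings tried. Its log2 difference was -1.20 without background correction and -1.20 on the authors' quantile normalized values, which are not background corrected. It was between -1.61 and -1.32 when 1 array was left out. The second STMN1 probe also stayed below 0, from -1.30 with an offset of 0 (a setting chosen after seeing the data) to -0.56 without background correction. Limma called 0 probes, and 0 probes of the pathway lists, in every planned setting except as follows. Leaving out 1 array gave 0 to 1 probes, the 1 being VCF1 at -4.19 (limma adjusted p = 0.0287) without control replicate 2, against -1.69 on all 4 arrays. A lone array is then assumed to vary like the other group. The replicate block alone called 0 probes and left the STMN1 difference at -1.47. The replicate block with a variance trend, chosen after seeing the data, called 188 probes (71 higher, 117 lower), of which 1 was in a pathway list, the second TUBA1A probe at -0.68 (limma adjusted p = 0.00777). The cause was not tested. Deviations of same-numbered arrays correlated at 0.352 across probes, while no label ties a replicate number to 1 experiment. At an unadjusted limma p under 0.05, 1017 probes were counted. Dim signals limit STMN2, STMN4 and the undetected STMN1 probes, which lie at the level of the negative controls.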
